A study of Mus musculus with 10 samples.

Results

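The Wnt signalling genes described here are 19 Wnt ligand genes, 10 Frizzled (Fzd) receptor genes, and the secreted inhibitors of the Dickkopf (4 Dkk genes) and secreted Frizzled-related (4 Sfrp genes) families. They were taken by name: every probe, other than control probes, whose gene name in the array files begins with Wnt, Fzd, Dkk or Sfrp followed by a digit. This gave 37 of the 27342 genes named on the arrays, read by 51 of 41174 probes, and these are all 37 protein-coding genes of the 4 families in RefSeq.

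The animals were 10 adult mice of ICR, an outbred stock, and RNA from the hippocampus of each was read on 1 Agilent 1-colour array. In the high estradiol group (HE, 5 animals), the dams had been given estradiol valerate, an estradiol ester dissolved in corn oil, by mouth at 100 µg/kg/day between E5.5 and E11.5 of gestation. In the control group (NC, 5 animals), the dams had been given corn oil alone. All animals carry the male label. No litter is given, so whether animals of a group shared a dam is not known. The p-values below rest on the spread between these animals, taken as independent, and could be too small if dams were shared.

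Wnt proteins are secreted lipid-modified ligands that bind Frizzled receptors, mostly together with the co-receptors Lrp5 and Lrp6. In the best known branch of the pathway β-catenin then accumulates and joins Tcf and Lef factors at target genes, while other branches act on cell polarity and calcium. Sfrp proteins bind Wnt ligands outside the cell, and Dkk1, Dkk2 and Dkk4 bind Lrp5 and Lrp6. In the hippocampus the pathway is known for its part in forming the structure in the embryo and in adult neurogenesis and synapses.

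Values are log2 signals relative to each array's 75th percentile, so that 0 is a bright probe's level and -1 is a signal lower by a factor of 2. Because probes differ in brightness, levels are compared between arrays and not between genes. The 75th percentile was a raw intensity of 898 to 1277. Between 70.3% and 78.8% of probes exceeded background clearly ("well above background" in the scanner files). Slide 1 held NC 1 to NC 4, slide 2 held HE 1, HE 2 and NC 5, and slide 3 held HE 3 to HE 5, so slide 2 alone held both groups. Xist, the RNA of the inactive X chromosome, was high (3.21 to 4.45) on 7 arrays labelled male, HE 1 to HE 3 and NC 1 to NC 4, and lay between -7.25 and -4.51 on HE 4, HE 5 and NC 5. Ddx3y, a Y-linked gene, lay between -9.31 and -5.51 on those 7 arrays and between 1.09 and 1.39 on the other 3. The signals of 7 arrays thus did not match the male label, and whether labels are wrong or samples were exchanged was not tested. Alb, the liver gene for albumin, was between -0.20 and 0.50 on NC 1, NC 2 and NC 4 and at most -4.80 on the other arrays. Markers of CA1, a field of the hippocampus, were present on every array, with a summed signal of 47.3 to 64.3 times the 75th percentile on HE arrays and 18.4 to 40.2 on NC arrays, and 4 of 6 passed as higher in HE. Markers of thalamus and habenula, which adjoin the hippocampus, had sums of 31.5 to 61.5 on HE arrays and 58.1 to 128 on NC arrays, with 12 of 20 lower and 1 higher in HE, and 18 of the 20 well above background on all 10 arrays. Myelin genes were lower in 7 of 10 cases, with sums of 256 to 337 on HE arrays and 446 to 569 on NC arrays. Midbrain (3 of 7), liver (3 of 7), hypothalamus (2 of 7), astrocyte (1 of 6) and vessel (1 of 8) markers were lower in part, and dentate granule (1 of 7), microglia (1 of 6) and neocortex (1 of 9) markers higher in part. Well above background on all 10 arrays were 0 of the 7 liver, 5 of the 7 midbrain and 6 of the 7 hypothalamus markers. A marker that entered the test through the NC arrays alone could hardly come out higher in HE. No marker of CA2 and CA3, choroid plexus or meninges passed. In bulk tissue, fewer cells of a type and less RNA per cell cannot be told apart.

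Of all 20068 genes tested with limma, 4088 passed at an adjusted p under 0.05, or 20.4%. That was 1301 higher in HE (6.48%) and 2787 lower (13.9%). The higher genes made up 31.8% of the calls here and 44.2% with quantile normalization. Of the 37 Wnt signalling genes, 30 could be tested. In HE hippocampus 3 of them rose (Wnt10a, Wnt2 and Fzd3), 3 fell (Wnt3, Wnt9b and Fzd10), and 24 did not pass. The share called, 20%, lay at the background of 20.4%. The median log2 fold change was -0.14 over the 30, against -0.06 over all genes, and 12 were above 0 and 18 below. For 2 of the 30 (6.67%) no HE array lay within the NC range or the reverse, against 16.5% of all genes. These were Wnt2, higher in HE (5.57% of all genes lay so), and Wnt3, lower in HE (11.0%).

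**Figure D1:**
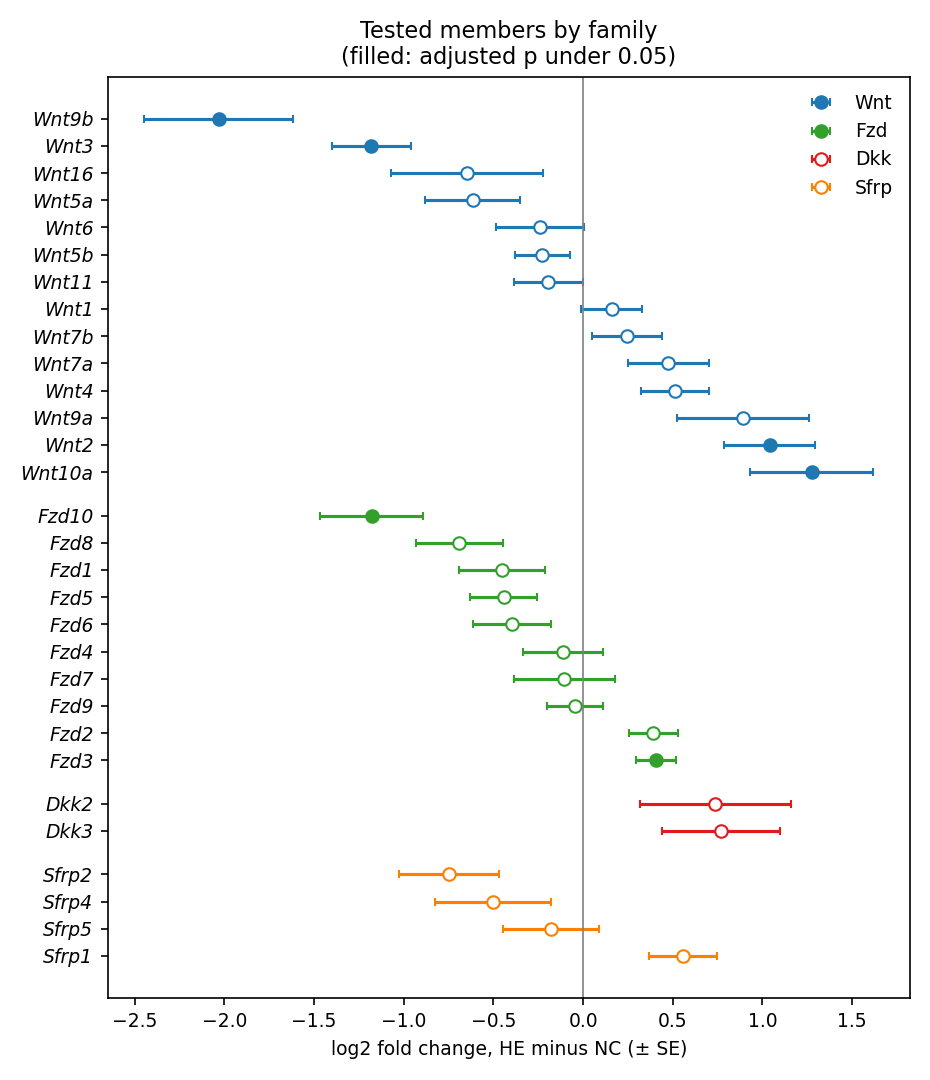
Log2 fold change, HE minus NC, of the 30 tested genes (points, horizontal axis) with its standard error (bars), ordered within the Wnt, Fzd, Dkk and Sfrp families. Filled points passed at an adjusted p under 0.05; they are Wnt9b, Wnt3 and Fzd10 on the lower side and Wnt10a, Wnt2 and Fzd3 on the higher side.

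The probes behind these 6 genes are shown first, because for Fzd10 and Fzd3 the result differs with the probe. Each is the opening 30 of 60 bases as given in the array files, 5′ to 3′, all in lower case because no part is singled out, with its place on mm9. Whether a probe lies in an exon or an untranslated region was not looked up, since no mm9 annotation was used here.
Wnt3, probe 1, chr11:103677409-103677468, plus strand: attgtgcgactggatccattcatcgaagtc
Wnt3, probe 2, chr11:103679038-103679097, plus strand: atttaataatagtacatgagcgcattgtaa
Wnt9b, chr11:103588882-103588941, minus strand: tgtctttctagccaaagcttcctctctcaa
Fzd10, probe 1, chr5:129109798-129109857, plus strand: ttgactctctgaattgttaaacaaatgatt
Fzd10, probe 2, chr5:129108855-129108914, plus strand: tgcaagaacaggacattcggagcccaaatg
Wnt10a, chr1:74850633-74850692, plus strand: tttcacttaacagatatttatttttgcgct
Wnt2, chr6:17939284-17939343, minus strand: aaagagtaagcaagggctttaactaagtga
Fzd3, probe 1, chr14:65811641-65811700, minus strand: tccgaattaaattgctgaggtaactaaatt
Fzd3, probe 2, chr14:65811278-65811319, minus strand: tggggtgtgaacacatccaaaccctaagga
Fzd3, probe 3, chr14:65831004-65853753, minus strand: caggttactcagatgagtcgtccagacctg
The region listed for probe 3 of Fzd3 spans 22750 bases although the probe has 60, so its sequence is split on the genome, and that of probe 2 covers 42. For each gene, probe 1 is the brighter one and stands for the gene in the test.

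Among the ligands, Wnt3 and Wnt9b fell and Wnt10a and Wnt2 rose. Wnt3 is a ligand of the β-catenin branch that mouse embryos need for gastrulation. Probe 1 of Wnt3 read -2.22, -2.17, -2.08, -1.27 and -1.80 on HE 1 to HE 5, against -0.73, -1.18, -0.33, -0.96 and -0.42 on NC 1 to NC 5. All HE arrays lay below all NC arrays, the nearest pair being HE 4 and NC 2. The log2 fold change was -1.18 ± 0.22 (SE, adjusted p = 0.0114 in limma, 5 animals per group), so that NC signals were 2.27 times those of HE. Probe 2 read -3.21, -3.07, -3.12, -2.17 and -3.52 on the HE arrays and -1.66, -2.36, -0.74, -1.28 and -0.94 on the NC arrays, a difference of -1.62 (adjusted p = 0.0121 in the limma fit over all probes). On this probe HE 4 lay above NC 2 and the other HE arrays lay below every NC array.

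Wnt9b, which induces kidney tubules in the mouse embryo, had the lowest log2 fold change of the 30 genes. Its signals were -4.70, -4.23, -4.68, -3.39 and -4.15 on the HE arrays, against -2.33, -3.59, -1.41, -2.16 and -1.50 on the NC arrays. The groups overlapped in one place, where NC 2 lay between HE 4 and the other HE arrays. The fold change was -2.03 ± 0.41 on the log2 scale (SE, adjusted p = 0.0140 in limma), and NC signals were 4.09 times those of HE. Wnt3 and Wnt9b both passed when any 1 of the 10 arrays was left out, with values of -1.34 to -1.08 for Wnt3 and -2.38 to -1.83 for Wnt9b.

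Wnt9b and Wnt3 are neighbours on chromosome 11, with no other protein-coding gene of RefSeq between them, and their listed starts on GRCm38.p6 lie 24354 bases apart and point away from each other. The 250 bases before each start, from RefSeq, are shown because both genes of this pair fell. Capitals mark GC boxes (GGGCGG) and CCAAT boxes (CCAAT), read on both strands.
Wnt3, chr11:103773925-103774174, plus strand: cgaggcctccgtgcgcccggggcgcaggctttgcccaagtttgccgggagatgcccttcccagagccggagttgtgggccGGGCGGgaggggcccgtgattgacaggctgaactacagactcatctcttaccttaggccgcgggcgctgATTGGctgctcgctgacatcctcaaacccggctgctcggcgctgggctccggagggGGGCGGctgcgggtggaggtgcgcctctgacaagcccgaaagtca
Wnt9b, chr11:103749822-103750071, minus strand: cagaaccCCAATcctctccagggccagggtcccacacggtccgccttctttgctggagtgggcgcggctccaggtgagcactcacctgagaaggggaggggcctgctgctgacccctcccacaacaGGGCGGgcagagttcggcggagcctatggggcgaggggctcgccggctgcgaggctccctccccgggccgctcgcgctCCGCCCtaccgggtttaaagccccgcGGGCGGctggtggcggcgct
Wnt3 held 2 GC boxes and 1 CCAAT box, and Wnt9b held 3 and 1. Over all 32851 windows of this length, 32.7% held a GC box and 33.8% a CCAAT box, and over the 28 windows of 25 of the Wnt signalling genes 20 and 10 did. The palindrome bound by estrogen receptors, GGTCANNNTGACC, was in 0.0639% of all windows and in none of the 28. Of the Tcf and Lef letters searched on both strands, CTTTGAT was in the windows of Wnt5b and Wnt11 (3.21% of all windows), CTTTGTT in those of Fzd7 and Dkk1 (5.03%), and CTTTGAA in that of Dkk1 (4.46%). These matches describe letters in a window and were not tested as binding sites.

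Wnt10a, a ligand known from teeth, hair and skin, had the highest log2 fold change of the 30 genes. Its signals were 0.55, 0.80, 0.18, 1.41 and 0.64 on the HE arrays, against 0.47, -0.30, -0.54, -1.03 and -1.40 on the NC arrays. NC 1 lay within the HE range and the other NC arrays lay below it. The log2 fold change was 1.28 ± 0.34 (SE, adjusted p = 0.0297 in limma), a factor of 2.42, but the call was lost when any 1 of HE 1, HE 2, HE 4, HE 5, NC 2, NC 4 or NC 5 was left out, with log2 fold changes of 1.06 to 1.53. Wnt6, its neighbour on chromosome 1, did not pass, with -0.24 on the probe that stands for it and -0.28 on another.

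Wnt2, known for its part in lung and placenta formation, read 0.34, 0.17, 0.66, 0.28 and 0.38 on the HE arrays, against -0.07, -0.25, -0.44, -1.43 and -1.16 on the NC arrays. Of the 30 genes it was the one whose HE arrays all lay above all NC arrays, and NC 4 and NC 5 were the lowest. The log2 fold change was 1.04 ± 0.25 (SE, adjusted p = 0.0222 in limma), a factor of 2.06. Without NC 5 it was 0.85 and did not pass.

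**Figure D2:**
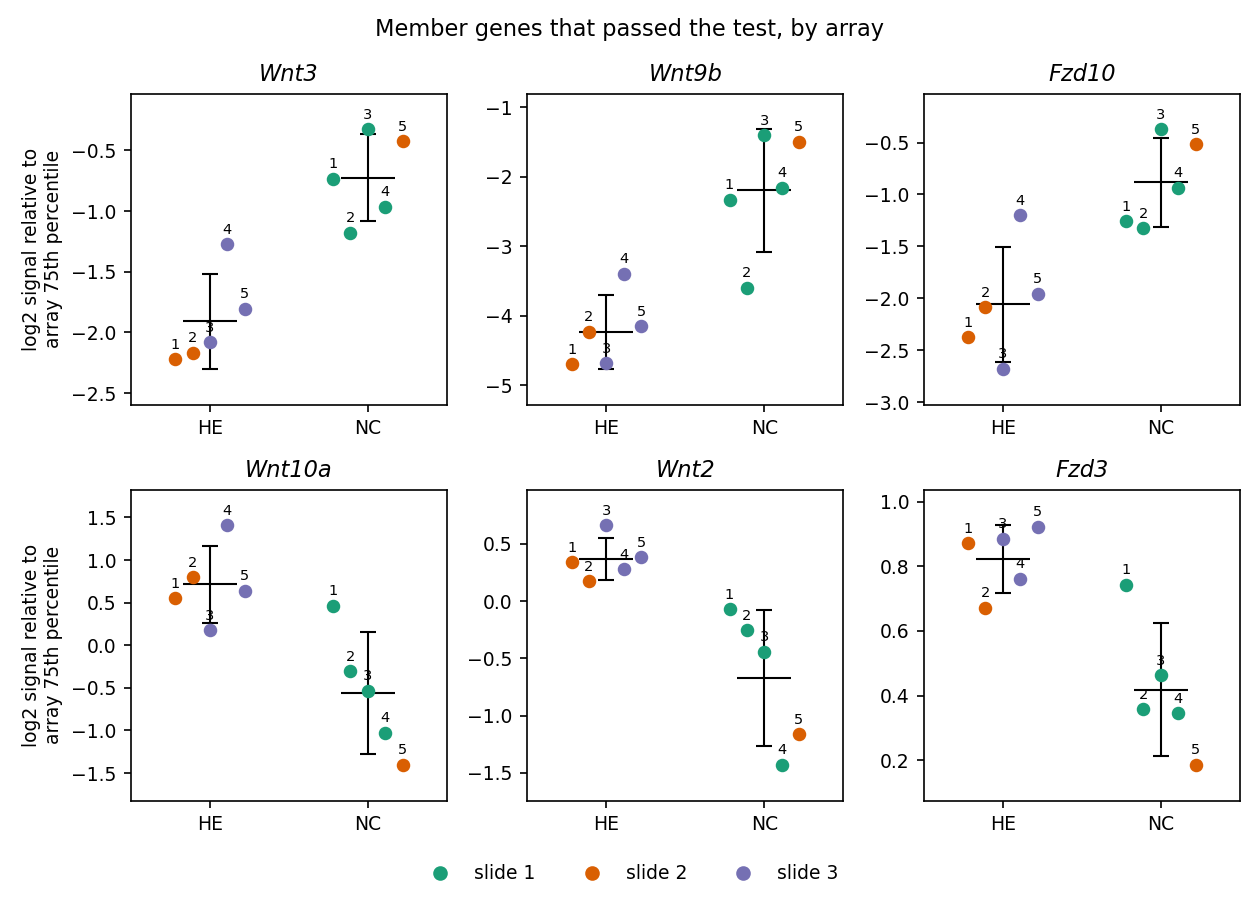
Log2 signal relative to each array's 75th percentile (vertical axis) of the 6 genes that passed, with 1 numbered point per array coloured by slide, HE left of NC, and the group mean with its SD as a line and bar. The upper row holds genes lower in HE, with HE 4 the highest HE array for each; the lower row holds genes higher in HE, with NC 1 the highest NC array for each.

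The 10 other ligands tested did not pass. Wnt9a, which has a part in joint formation and was included as one of the 3 brightest ligand probes, averaged -0.42 ± 0.74 in HE and -1.31 ± 0.53 in NC (SD, 5 animals each), a difference of 0.89 with an adjusted p of 0.110 in limma. Differences above 0 that missed the threshold were 0.51 for Wnt4, 0.47 for Wnt7a, 0.24 for Wnt7b and 0.16 for Wnt1. Wnt7a and Wnt7b are ligands of the growing brain vessels and of synapses. Differences below 0 that missed it were -0.65 for Wnt16, -0.61 for Wnt5a, -0.24 for Wnt6, -0.23 for Wnt5b and -0.19 for Wnt11. Wnt5a, a ligand of the branches without β-catenin, averaged -2.64 ± 0.41 in HE and -2.02 ± 0.50 in NC (SD). Wnt16 was well above background on 3 HE and 2 NC arrays, while the other 29 tested genes were so on all 10.

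Another 5 ligands, Wnt10b, Wnt2b, Wnt3a, Wnt8a and Wnt8b, did not reach the 3 arrays well above background that a group needed for the test. Wnt3a, which mouse embryos need to form the hippocampus, and Wnt8a were well above background on no array. Wnt8b was so on NC 3 and NC 5, at -4.49 and -2.75, and on no HE array, where it read -8.52 to -7.08. For these genes the arrays give a bound and no group difference.

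Among the 10 Frizzled receptors, all of which were tested, Fzd10 fell and Fzd3 rose, and 8 of the 10 log2 fold changes were below 0, with a median of -0.25. Of all 20068 genes 11239 were below 0, with a median of -0.06, and for Fzd7 and Fzd8 among the 8 another probe had the opposite sign. Probe 1 of Fzd10 read -2.38, -2.09, -2.68, -1.20 and -1.96 on the HE arrays, against -1.26, -1.32, -0.37, -0.94 and -0.51 on the NC arrays. HE 4 lay among the NC arrays and the other HE arrays below all of them. The log2 fold change was -1.18 ± 0.29 (SE, adjusted p = 0.0217 in limma), with NC signals 2.26 times those of HE. It did not pass without HE 1 or without NC 5, with values of -1.39 to -1.02 when each array was left out in turn.

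Probe 2 of Fzd10 did not show this difference. It read -2.79, -3.09, -3.52, -2.45 and -3.12 on the HE arrays and -3.11, -2.87, -1.68, -3.17 and -3.57 on the NC arrays, a difference of -0.11 with an adjusted p of 0.833 in the limma fit over all probes. NC 3 was the highest array on both probes, and NC 5 was among the higher arrays on probe 1 and the lowest on probe 2. The fall of Fzd10 is therefore a result of 1 of its 2 probes.

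Fzd3, a receptor that guides axons in the mouse brain through the polarity branch, read 0.87, 0.67, 0.89, 0.76 and 0.92 on the HE arrays with probe 1, against 0.74, 0.36, 0.46, 0.34 and 0.19 on the NC arrays. NC 1 lay within the HE range and the others below it. The log2 fold change was 0.40 ± 0.11 (SE, adjusted p = 0.0320 in limma), a factor of 1.32. Probe 2 differed by 0.24 and probe 3 by -0.06, with adjusted p of 0.324 and 0.841 in the limma fit over all probes. The call was lost when any 1 of HE 1, HE 3, HE 4, HE 5, NC 2, NC 4 or NC 5 was left out, with values of 0.35 to 0.49.

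Fzd2 averaged 0.72 ± 0.14 in HE and 0.33 ± 0.27 in NC (SD), and its difference of 0.39 missed the threshold at an adjusted p of 0.0688 in limma. Fzd9, a receptor of hippocampal progenitors in mice, averaged 0.28 ± 0.20 in HE and 0.33 ± 0.30 in NC. The differences of the remaining receptors were -0.69 for Fzd8, -0.45 for Fzd1, -0.44 for Fzd5, -0.40 for Fzd6, and -0.11 each for Fzd4, the receptor of norrin, and for Fzd7. None of these passed. On a second, dimmer Fzd7 probe the HE arrays read -5.37 to -4.59 and the NC arrays -5.61 to -5.40, and this probe was higher by 0.47 (adjusted p = 0.0346 in the limma fit over all probes), opposite in sign to the brighter probe. Fzd8 also had probes of opposite sign, at -0.69 and 0.24.

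**Figure D3:**
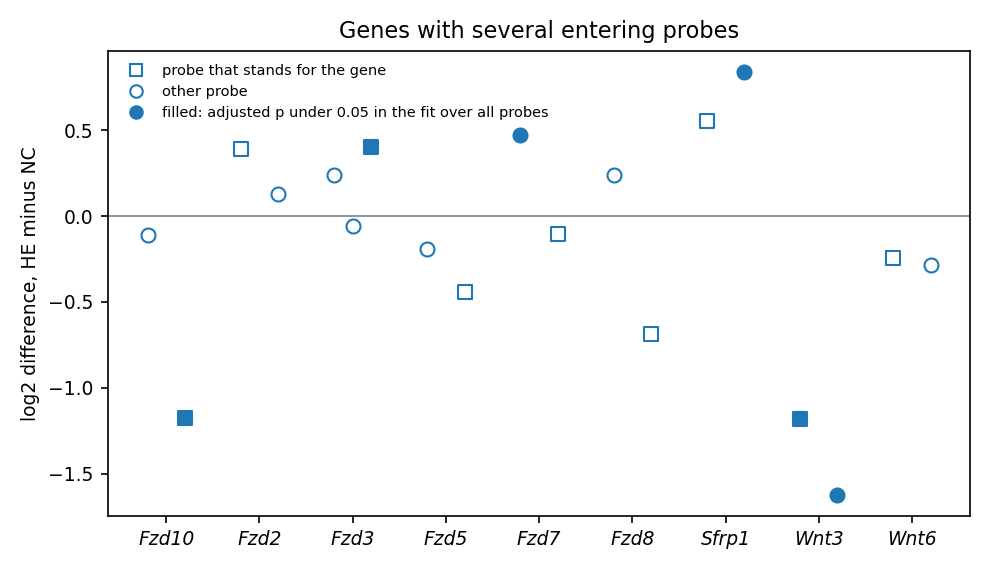
Log2 difference, HE minus NC (vertical axis), of each entering probe of the 9 genes with more than 1 such probe; squares stand for the gene in the test, circles are its other probes, and filled symbols passed in the fit over all probes. Both Wnt3 probes lie below -1, while Fzd10 has 1 probe near 0 and Fzd3, Fzd7 and Fzd8 have probes on both sides of 0.

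Of the 9 genes with more than 1 entering probe, 6 had probes of the same sign and 3 (Fzd3, Fzd7 and Fzd8) did not. Wnt3 was the 1 gene among them for which every probe passed. In that fit over all probes, 7169 of 30980 probes passed.

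None of the 6 secreted inhibitors tested passed as the gene's probe. Dkk3, the divergent Dickkopf protein that neurons make, read 2.44, 2.86, 1.83, 2.72 and 2.20 on the HE arrays, against 2.43, 1.32, 1.61, 2.16 and 0.66 on the NC arrays. The groups overlapped, with NC 5 the lowest array, and the difference of 0.77 ± 0.33 (SE) had an adjusted p of 0.121 in limma. Dkk2 averaged -3.67 ± 0.96 in HE and -4.41 ± 0.42 in NC (SD), with HE 3 at -2.03 above all others. Its difference was 0.74, and 0.33 without HE 3. Dkk1, the best known Dickkopf inhibitor, was well above background on no array on either of its probes. Dkk4 read -4.17 on HE 4 and between -9.41 and -8.27 on the others, and was not tested.

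Sfrp1, an inhibitor that binds Wnt proteins, read 1.21, 1.33, 1.01, 1.27 and 1.01 on the HE arrays, against 0.46, 0.92, 1.19, 0.25 and 0.24 on the NC arrays. NC 3 lay within the HE range and the other NC arrays below it. The difference of 0.55 ± 0.19 (SE) had an adjusted p of 0.0630 in limma. A second Sfrp1 probe, dimmer, read -4.69, -4.65, -4.88, -3.63 and -4.55 on the HE arrays and -4.93, -5.28, -4.96, -5.58 and -5.85 on the NC arrays, without overlap, and passed at a difference of 0.84 (adjusted p = 0.0413 in the limma fit over all probes). Sfrp2 averaged -2.64 ± 0.45 in HE and -1.89 ± 0.51 in NC (SD), a difference of -0.75 that did not pass. Sfrp4 differed by -0.50 and Sfrp5 by -0.18, and neither passed.

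Slide 2, the one slide with both groups, gave the same direction for all 6 genes that passed. With slide as a fixed block, where HE 1 and HE 2 are set against NC 5, the log2 fold changes were -1.77 for Wnt3, -2.97 for Wnt9b, -1.72 for Fzd10, 2.08 for Wnt10a, 1.42 for Wnt2 and 0.59 for Fzd3. None passed in that fit, with adjusted p of 0.0726 to 0.150 in limma, and of all 20068 genes 205 did. On this slide HE 1 and HE 2 had high Xist and NC 5 did not. Among the 7 arrays with high Xist, 3 HE and 4 NC, the values were -1.35 for Wnt3, -2.16 for Wnt9b, -1.41 for Fzd10, 0.86 for Wnt10a, 0.94 for Wnt2 and 0.33 for Fzd3. None passed, with adjusted p of 0.0581 to 0.183 in limma, and of all genes 77 did. Without NC 1, NC 2 and NC 4, the arrays with high Alb, the values were -1.53, -2.78, -1.62, 1.68, 1.17 and 0.50 in the same order. All but Fzd3 passed, and of all genes 1921 did.

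The 3 genes that fell shared extreme arrays with markers of neighbouring tissue. For Wnt3, Wnt9b and Fzd10, HE 4 was the highest HE array, NC 3 the highest NC array and NC 2 the lowest NC array, and the same held for the median of the 20 thalamus and habenula markers. The other HE arrays were ordered differently: the lowest was HE 1 for Wnt3 and Wnt9b and HE 3 for Fzd10 and the markers. That median was -0.38, -0.36, -0.85, 0.43 and -0.51 on HE 1 to HE 5, and 1.07, 0.43, 2.13, 1.56 and 1.66 on NC 1 to NC 5. Its part in the results for Wnt3, Wnt9b and Fzd10 was not tested. Other lists shared some of these extremes. The myelin and choroid plexus medians also had NC 3 as the highest and NC 2 as the lowest NC array. For both, however, HE 2 was the highest HE array. The hypothalamus median had HE 4 as its highest HE array (-0.29), with NC 5 the highest and NC 1 the lowest NC array. The part of these lists was not tested. Tcf7l2, a Tcf factor abundant in thalamus, read -0.35, -0.03, -0.14, 1.77 and -0.07 on the HE arrays and 2.39 to 3.35 on the NC arrays. HE 4 was its highest HE array too, but NC 5 was its highest NC array and NC 1 its lowest. The genes that rose had other extremes: NC 1 was the highest NC array for Wnt10a, Wnt2 and Fzd3, and for the median of the CA1 markers, which was at least 2.15 on HE arrays and at most 1.70 on NC arrays. NC 5 was the lowest NC array for Wnt10a, Fzd3 and the CA1 median, and NC 4 for Wnt2. The highest HE array was HE 3 for Wnt2 and the CA1 median, HE 4 for Wnt10a and HE 5 for Fzd3. For the median of the neocortex and subiculum markers, NC 1 was also the highest NC array (1.09) and NC 5 the lowest (0.45). Its highest HE array was HE 4 (1.52) and its lowest HE 3 (0.06), so all these extremes were those of Wnt10a. The part of the CA1 or the neocortex and subiculum markers in the results for Wnt10a, Wnt2 and Fzd3 was not tested either.

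**Figure D4:**
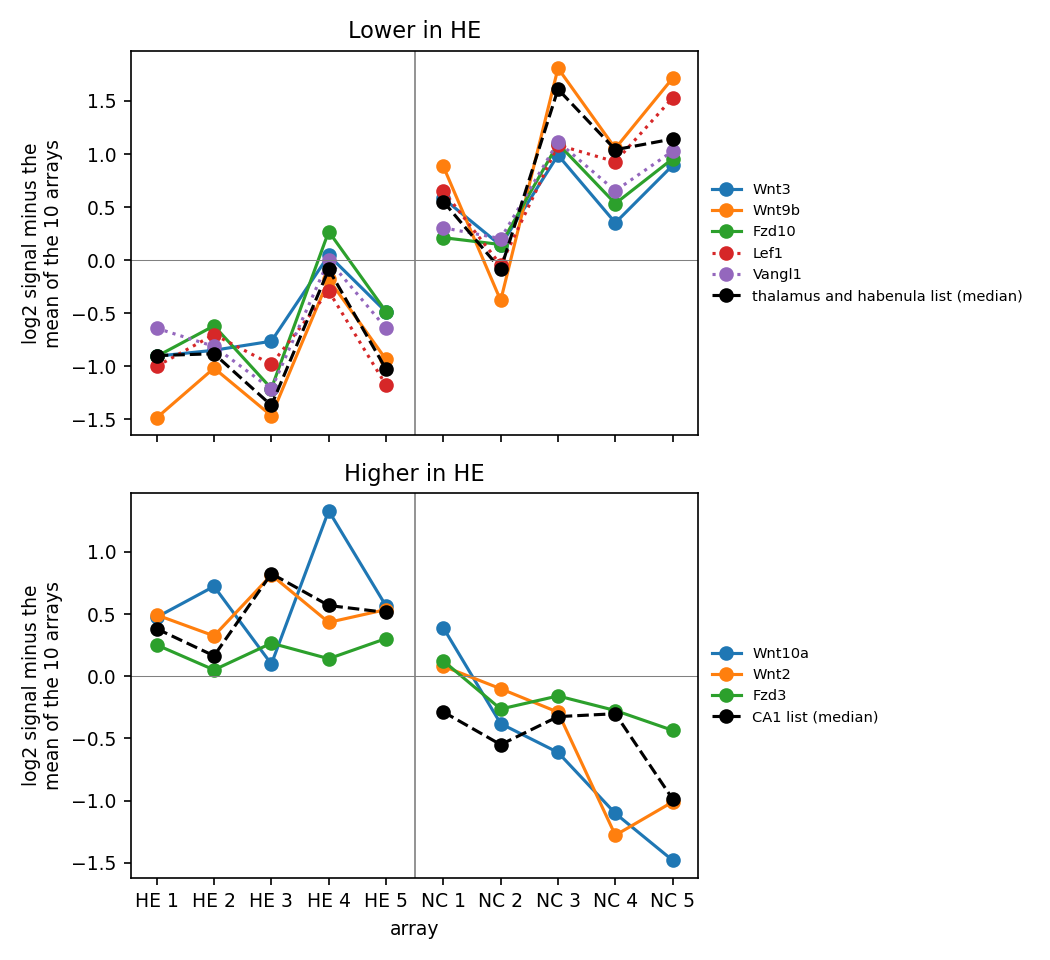
Log2 signal on each array minus the mean of the 10 arrays (vertical axis), HE arrays on the left and NC arrays on the right. The upper panel holds Wnt3, Wnt9b and Fzd10 with Lef1, Vangl1 and the median of the thalamus and habenula markers. These share a high HE 4 and a low NC 2, and Lef1 is itself on that marker list. Not drawn are Tcf7l2 and Lgr5, which also fell and whose lowest NC array was NC 1. The lower panel holds Wnt10a, Wnt2 and Fzd3 with the median of the CA1 markers.

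Of 93 other genes of the pathway, 90 were tested, and 7 rose and 8 fell, or 16.7%, against 20.4% of all genes, with a median log2 fold change of 0.09, against -0.06. Of all genes 6.48% rose and 13.9% fell, and the counts by group below are to be read against these shares. With slide as a fixed block 1 of the 90 passed in limma (Gsk3a, with 20 at an unadjusted p under 0.05). Of all 20068 genes 205 passed there (4734 unadjusted). Among the arrays with high Xist 1 of the 90 did (Tcf7l2, with 18 unadjusted), against 77 of all genes (5241 unadjusted). Without the arrays with high Alb 12 of the 90 did (37 unadjusted), against 1921 of all genes (6703 unadjusted). Axin2, Bcl9, Celsr2 and Ndp were newly among the 12. In that fit Ctnnbip1, Daam1, Celsr1, Dvl3, Ppp2r5e, Prickle3 and Tcf7l1 did not pass. In the group of co-receptors and ligand handling, 2 of 30 fell and none rose, while Lrp5 and Lrp6 differed by -0.03 and 0.15. Lgr5, the receptor for R-spondins that marks stem cells, read -1.77, -2.03, -1.67, -1.64 and -1.32 on the HE arrays, against -0.98, -0.04, -0.87, -0.54 and -0.65 on the NC arrays, without overlap. Its log2 fold change was -1.07 ± 0.19 (SE, adjusted p = 0.0101 in limma). Tspan12, a partner of Fzd4 in norrin signalling, fell by 0.38 on the log2 scale, a call that was lost when any 1 of HE 1, HE 2, HE 4, HE 5, NC 2, NC 3 or NC 5 was left out and that held in 12 of 26 alternatives. Ryk, a Wnt receptor of the tyrosine kinase type, and Rspo2, an R-spondin, were next by p and did not pass, at -0.23 and 0.91.

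Of 24 genes of the cytoplasmic relay, 4 rose and 2 fell. Dact2, a partner of Dishevelled, read 2.68 to 3.58 on the HE arrays, against 1.81 to 2.38 on the NC arrays, a log2 fold change of 0.97 ± 0.17 (SE, adjusted p = 0.0101 in limma). Gsk3a, a kinase that marks β-catenin for destruction, rose by 0.61, and Axin1, the scaffold of the same complex, by 0.57. Axin1 was at -0.28 with normexp background correction, so its direction depends on that step. Dvl3, a Dishevelled protein, was the other gene that rose. Ctnnbip1, an inhibitor that keeps β-catenin from Tcf factors, fell by 0.50 and had no overlap between groups, and Ppp2r5e fell by 0.27. The Ctnnbip1 call held in 20 of 26 alternatives, with values of -0.59 to -0.09. Ctnnb1, the gene for β-catenin itself, differed by -0.07 and did not pass.

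Of 15 genes of the nuclear relay, 1 rose and 2 fell. Tcf7l2 and Lef1 fell by 2.62 and 1.66 on the log2 scale, with adjusted p of 0.0061 and 0.0086 in limma. Both are also on the list of thalamus and habenula markers. Lef1 read -2.63, -2.33, -2.61, -1.92 and -2.81 on the HE arrays and -0.98, -1.68, -0.55, -0.71 and -0.10 on the NC arrays, and again HE 4 was the highest HE array and NC 2 the lowest NC array. Tcf7l1 rose by 0.80, with -0.26 under normexp background correction, and was not called when any 1 of HE 1, HE 5, NC 1, NC 2 or NC 5 was left out. Tle4, a corepressor, did not pass at 0.52.

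Of 12 genes known as feedback targets of β-catenin signalling, Lgr5 fell, none rose, and 11 did not pass. Axin2, the target most often used to read the pathway, read -2.29, -2.49, -2.34, -2.25 and -2.35 on the HE arrays, against -2.67, -2.83, -2.73, -4.58 and -2.88 on the NC arrays. All HE arrays lay above all NC arrays, and NC 4 lay far below the others. The difference of 0.79 ± 0.33 (SE) had an adjusted p of 0.112 in limma. Without NC 4 the Axin2 difference was 0.43, and with normexp background correction it was -0.22. Axin2 passed in 2 of 26 alternatives. In 1 of them 1 array was left out, and in the other the arrays with high Alb, NC 4 among them. Myc, at 0.25 and at -0.35 with normexp, likewise had no overlap and did not pass, and Notum, at -0.53, did not pass.

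Of 13 planar polarity genes, 2 rose and 2 fell. Vangl1, a core polarity protein of the membrane, read -0.68, -0.86, -1.26, -0.04 and -0.68 on the HE arrays, against 0.26, 0.16, 1.07, 0.61 and 0.98 on the NC arrays, a log2 fold change of -1.32 ± 0.25 (SE, adjusted p = 0.0114 in limma). HE 4 was the highest HE array and NC 2 the lowest NC array here too. For Lgr5, which also fell, HE 5 was instead the highest HE array and NC 2 the highest NC array. Daam1, a formin that links Dishevelled to actin, fell by 0.35 on the log2 scale, a call that held in 20 of 26 alternatives, with values of -0.73 to -0.02. Celsr1, a cadherin of the same system, rose by 0.72, with HE arrays at -0.39 to 0.20 and NC arrays at -1.13 to -0.59. Prickle3, a cytoplasmic polarity protein, rose by 0.90, with -0.77 under normexp background correction. Its call was lost when any 1 of HE 1, HE 2, HE 4, HE 5, NC 2, NC 4 or NC 5 was left out, and held in 10 of 26 alternatives.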

How the data were processed

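Total RNA was amplified, labelled with Cy3 and read on 1-colour arrays, per the labels' protocols, and Agilent Feature Extraction 10.7 was used, as the submitters' processing notes list. The deposited scanner files hold intensity on a linear scale, background-subtracted in the processed signal, per the file headers. The authors' deposited value table holds log2 values of unstated making that matched quantile-normalized processed signals (slopes of 1.002 to 1.003); it was an alternative.

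Here each array's 75th percentile was subtracted from its log2 processed signals. Spots marked as outliers were left out (68 to 129 per array). Probes well above background on at least 3 arrays of a group entered (30980), and the brightest entering probe stood for its gene, named through RefSeq (GRCm38.p6). HE and NC were set against each other in limma 3.58.1 (R 4.3.3), two-sided, without covariates, with Benjamini-Hochberg adjustment over all genes. Wnt signalling genes, pathway lists and marker lists were chosen with earlier results of these data known. Named genes were those that passed, the 3 brightest and 2 smallest p per family, and the 4 smallest p per list. No arrays were duplicates (SD of log2 differences 0.444 to 0.723). Tested on simulated data with 20068 genes, 200 of them changed, the fit recovered 20.9%, 59.7% and 81.8% at log2 changes of 0.5, 1 and 2, with 4 wrong among 112 calls. The simulated noise was independent between genes and held no slide, sex or tissue differences, so these rates may not hold for the arrays. Alternatives changed the background correction, normalization, probe filter, probe choice, slide or replicate block, or left out arrays.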

Additional observations from a re-analysis of the deposited data

Results flagged for a closer look

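In 4 of the 60 combinations of a tested gene and a group, 1 array lay far from the other 4, and chance gives about 1 in 20. On HE 3, Dkk2 read -2.033, against -4.54 to -3.85 on the other HE arrays, and Wnt4 read -2.702, against -2.11 to -1.93. Fzd8 read -4.167 on HE 4, and -5.18 to -4.94 on the other HE arrays. Wnt16 read -3.81 on NC 1, and -6.51 to -5.81 on the other NC arrays. None of these 4 genes passed the test. Dkk4, which did not enter the test, read -4.172 on HE 4, above the -8.78 to -8.27 of the NC arrays.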

How the results depend on the processing

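All 6 genes that passed kept their direction under each of 26 alternatives, 4 of them chosen after seeing the data; Wnt3 and Wnt9b passed in 23, Wnt2 in 22, Fzd10 in 20, Wnt10a in 15 and Fzd3 in 13. Genes called were 8879 with normexp background correction (which moved the median of all genes to -0.29), 8862 with normexp centred on the median gene, 7169 with every probe on its own, 205 with slide as a fixed block, 0 on slide 2 alone (7079 at an unadjusted p under 0.05), 77 on arrays with high Xist, 1921 without arrays with high Alb, and 1978 to 4211 with 1 array left out, lowest without NC 2 (1978), HE 1 (2046) and NC 5 (2250). Wnt signalling genes higher in HE were 6 with normexp and when centred, 5 with quantile normalization, the value table or every probe, 0 with the slide block, slide 2 or high Xist arrays, and 0 to 4 with 1 array left out. Those lower in HE were 14 with normexp and when centred, 0 with the slide block, slide 2 or high Xist arrays, 5 with high Xist as a covariate, and 2 to 4 with 1 array left out. Of all genes called, 20.1% were higher in HE with normexp and 36.9% when centred, against 31.8% without either step. The other called genes were lower. The 6 higher and 14 lower Wnt signalling genes are to be read against these shares. With the replicate block, 1 Wnt signalling gene was higher and 4 were lower. Fzd3 and Wnt10a did not pass there, and 3031 genes were called. The replicate numbers did not pair the animals, with correlations of deviations of -0.08 to 0.13 and 2 of 5 HE arrays closest to their own number. Dvl3 and Ppp2r5e, which passed, were not followed through all alternatives. Of the 19 genes that passed and were followed, directions turned, with normexp and when centred, for 3: Axin1 (-0.284 and -0.065), Tcf7l1 (-0.256 and -0.0366) and Prickle3 (-0.77 and -0.55). Among the 30 followed genes that did not pass, 13 changed sign under some alternative, with lowest values of -0.22 for Axin2, -0.35 for Myc, -1.12 for Wnt1 and -0.58 for Dkk2, all with normexp. The causes were not tested.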
